A study of Homo sapiens with 8 samples.

Results

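Mitosis is run by a small set of genes whose transcripts rise as a cell leaves S phase and fall after it divides. The 58 genes described here are a fixed list of symbols from that set, listed by name with earlier results of these data known, and cover the centromere and kinetochore, the spindle checkpoint, the chromosomal passenger complex, mitotic kinases and cyclins, anaphase, the spindle, cytokinesis and the mitotic chromosome. All 58 were found among the 52719 genes of the table, and all 58 reached the minimum mean of 1 TPM for testing, as did 17077 genes in all. TPM is a transcript's share of its library corrected for length and sums to 1000000 in every library, so levels can be set side by side between genes. It keeps no read depth, so counting error cannot be given. The RNA came from SH-SY5Y, an established human neuroblastoma line, a cloned subline of mostly neuron-like cells with some flatter, substrate-adherent ones, and was sequenced as mRNA. One group was left undifferentiated (4 libraries, replicates 17 to 20, with no agent named), and the other was given 1 µM 9-cis retinoic acid, a ligand of the RAR and RXR receptors, for 7 days (4 libraries, replicates 21 to 24). All 8 libraries come from this 1 line, and nothing says whether replicates were separate cultures, so p-values measure only the spread between these libraries. Both groups are described as grown in medium with foetal calf serum. How long the undifferentiated cells were kept is not given, so treatment and time in culture cannot be told apart.

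At the start of mitosis the kinase CDK1, bound to cyclin B, drives the condensation of chromosomes by condensin and the building of a spindle of microtubules. Each chromosome holds that spindle through its kinetochore, a protein assembly built on centromeres that carry the histone CENPA, and the spindle checkpoint holds back the anaphase-promoting complex (APC/C) until every kinetochore is attached. The chromosomal passenger complex corrects faulty attachments, and once securin and cyclin B are destroyed the sister chromatids part and the cell divides. Retinoic acid is widely used to make SH-SY5Y cells slow their division and put out neurites.

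The differentiated libraries held less of nearly the whole set. Summed over the 58 genes, the level was 5724, 5767, 5710 and 5707 TPM in undifferentiated replicates 17 to 20 and 3852, 3454, 3634 and 3790 TPM in differentiated replicates 21 to 24, a fall from 5727 ± 27.7 to 3682 ± 178 TPM (mean ± SD, n = 4 each), or to 64.3% of the undifferentiated level. With limma on log2(TPM+1) and Benjamini-Hochberg adjustment over all 17077 genes (adjusted p under 0.05, two-sided), 51 of the 58 were lower, 2 were higher and 5 were not called. Of all tested genes 17.4% were called lower and 33.9% higher, so 51.3% were called in either direction. The median log2 fold change, differentiated minus undifferentiated on the log2(TPM+1) scale, was -0.62 over the 58 genes and 0.10 over all tested genes. A fall of 0.5 or more on that scale was seen in 40 of the 58 (69.0%) and in 11.3% of tested genes, and 8 of the 58 fell by 1 or more. The genes called lower stood at 40.2% to 91.6% of their undifferentiated level, so the transcripts were reduced and not lost: the lowest mean in the differentiated libraries was 11.5 TPM, for CENPE. In bulk RNA, fewer cells in mitosis and less of these transcripts in each cell cannot be told apart.

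In 50 of the 58 genes every differentiated library lay below every undifferentiated one, a pattern held by 17.3% of tested genes. In 2 genes, SPC24 and ANLN, every differentiated library lay above, as in 32.3% of tested genes, and in 6 the groups overlapped. Replicates agreed closely, with a median coefficient of variation over the 58 genes of 3.32% in the undifferentiated and 5.75% in the differentiated group. Replicate 22 was the lowest differentiated library for 33 of the 58 genes (56.9%), and it was also the lowest for 54.7% of all tested genes. Without it 50 of the 58 were called lower and 1 higher, and the sum stood at 65.6% of the undifferentiated level.

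**Figure D1:**
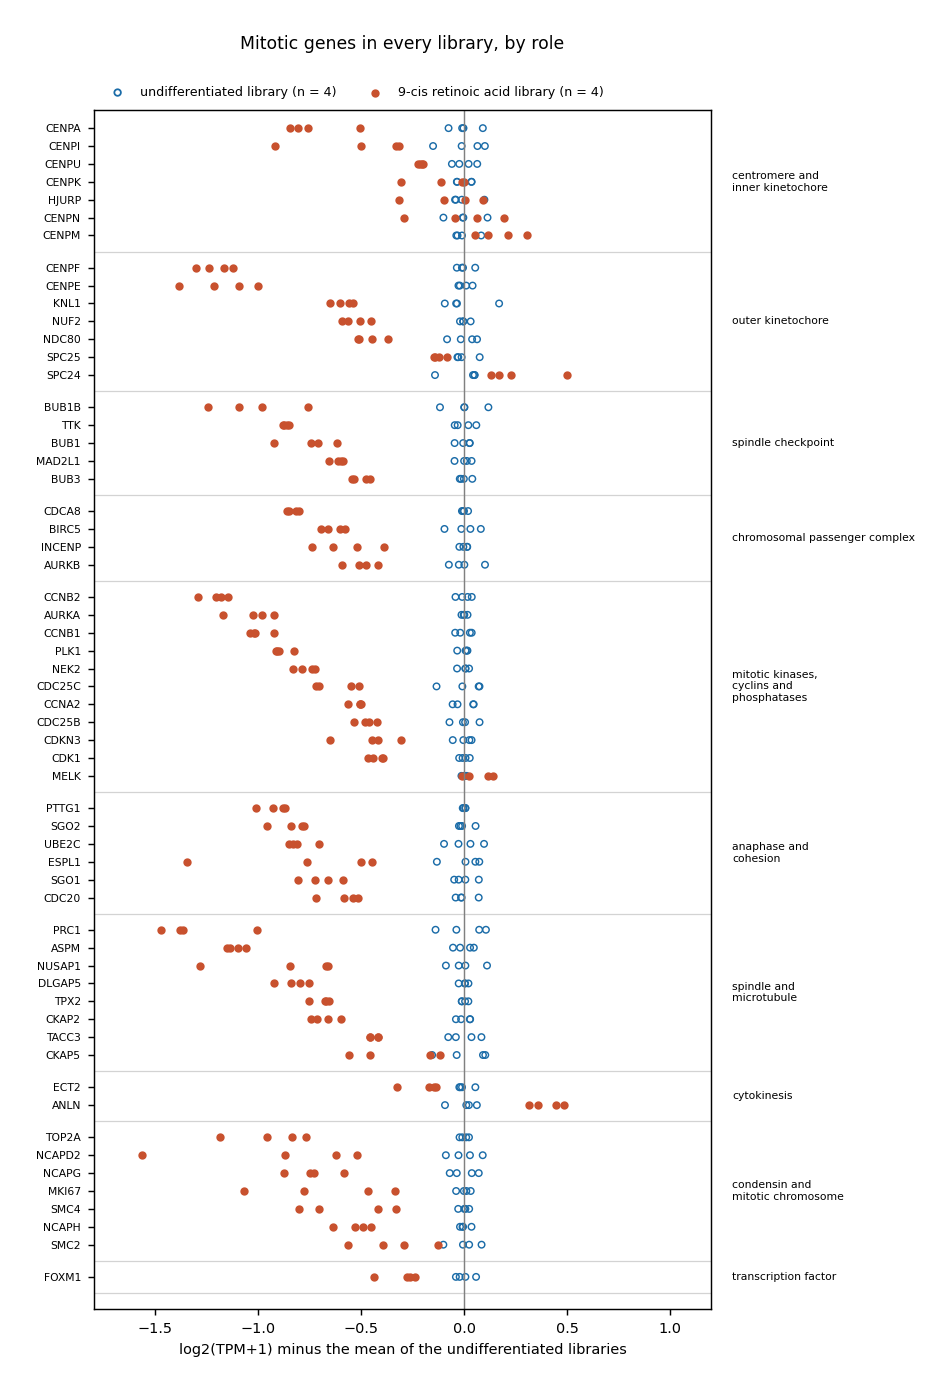
Level of each of the 58 genes in every library, as log2(TPM+1) minus the mean of the 4 undifferentiated libraries (x axis), with genes in rows grouped by role; open blue circles are undifferentiated and filled red circles 9-cis retinoic acid libraries. Most rows show all 4 red circles to the left of the blue ones, while ANLN and SPC24 lie to the right and HJURP, CENPK, CENPN, CENPM, MELK and CKAP5 overlap.

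The sequencing lane was 7 for undifferentiated replicates 17 and 18 and 8 for the other 6 libraries. Lanes 7 and 8 compared within the undifferentiated group gave no call among the 58 genes (1 at an unadjusted p under 0.05, and 2 of 16647 genes or 0.012% called in all). Within lane 8 alone, 2 undifferentiated against 4 differentiated libraries, 44 of the 58 were lower and 1 higher, and the 7 lower calls lost were CENPI, SPC25, ESPL1, CKAP5, ECT2, NCAPD2 and SMC2. The higher call of SPC24 was lost there too (0.21, limma, adjusted p = 0.222). More genes rose than fell in the table as a whole, and since TPM are shares the scaling matters most for small changes. Of all calls 66.1% were higher in the TPM as deposited, 50.4% after median-of-ratios scaling and 45.0% after quantile normalization, and the median of all genes moved from 0.10 to -0.02 and -0.07. Set against those medians the median of the 58 genes fell by 0.71, 0.73 and 0.66 on the log2 scale, and 53 of them were lower and 1 higher under either rescaling. The genes gained as lower were HJURP and CENPK, and SPC24 lost its call.

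Markers of cell types, those of the line itself included, moved as well, and their part in the fall was not tested. Of 16 mesenchymal or substrate-adherent genes 13 could be tested and 10 rose, with the summed level at 427 to 463 TPM in undifferentiated and 1409 to 1519 TPM in differentiated libraries, although PRRX1 stayed near 0 in both groups. Of 10 noradrenergic neuroblastoma genes 9 could be tested, 7 fell and 1 rose, and their sum went from 2142 to 2218 TPM down to 1398 to 1647 TPM, with TH near 0 throughout. The noradrenergic marker HAND2 was present in both groups. SOX10, the defining Schwann gene, was listed at 0 in all 8 libraries, as were CD3E and HBB of blood and KRT5 and KRT14 of epithelium. Of the 6 Schwann genes 3 were tested and S100B rose, of the 6 blood genes only CD68 was tested and it rose, and the single epithelial gene tested, EPCAM, was not called. The Schwann sum was 6.82 to 8.93 TPM and 15.7 to 18.7 TPM, the blood sum 1.24 to 1.57 TPM and 20.4 to 24.0 TPM, and the epithelial sum 1.21 to 1.76 TPM and 1.22 to 1.98 TPM in the groups in that order. Endothelial genes summed to at most 0.254 TPM in any library.

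Many mitotic genes share promoter elements. The cell cycle genes homology region (CHR) is bound by the MuvB complex, which represses these genes in resting cells together with E2F4 and a pocket protein and activates them late in the cycle together with MYBL2 and FOXM1, and the CCAAT box is bound by NF-Y. RefSeq promoter windows on GRCh38.p14, each running from 250 bases before to 50 after a start site, were found for 49 of the 58 genes (62 windows, since some genes have several). They were searched on both strands for the CHR letters TTTGAA or TTCGAA and for CCAAT. CHR letters were in 37 of the 62 windows (59.7%), in 16.4% of all 35116 windows and in 11.95% of the windows of genes tested here. CCAAT was in 43 (69.4%), in 34.6% of all windows and in 34.9% of those of tested genes. Both occurred together in 29 windows (46.8%), against 6.38% of all windows. Of the windows of DNA replication genes, another set of the cell cycle, 6.52% held CHR letters and 56.5% held CCAAT. A match of letters is a description and not a site shown to be bound.

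The promoters of 5 genes are printed to show what these letters look like at both ends of the range of change. PRC1 and CENPF had the largest falls among genes with CHR letters and CCAAT in 1 window, and CENPN and HJURP the smallest changes; CCNB2 was added after its values were seen, for its regular spacing. Each stretch runs from 150 bases before to 30 bases after the start site, 5′ to 3′ on the gene's strand, with capitals marking TTTGAA for the CHR and CCAAT or, where it lies on the other strand, ATTGG for the CCAAT box.
PRC1: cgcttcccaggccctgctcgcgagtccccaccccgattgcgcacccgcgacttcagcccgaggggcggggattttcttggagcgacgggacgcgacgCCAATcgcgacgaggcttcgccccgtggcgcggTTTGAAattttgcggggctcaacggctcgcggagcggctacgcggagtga
CENPF: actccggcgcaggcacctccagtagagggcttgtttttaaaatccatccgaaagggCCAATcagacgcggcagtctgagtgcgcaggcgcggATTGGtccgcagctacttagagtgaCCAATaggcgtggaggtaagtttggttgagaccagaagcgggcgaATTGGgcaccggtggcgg
CENPN: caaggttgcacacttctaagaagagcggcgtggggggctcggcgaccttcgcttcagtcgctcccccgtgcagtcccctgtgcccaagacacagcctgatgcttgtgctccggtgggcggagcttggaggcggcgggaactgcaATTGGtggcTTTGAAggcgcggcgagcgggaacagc
HJURP: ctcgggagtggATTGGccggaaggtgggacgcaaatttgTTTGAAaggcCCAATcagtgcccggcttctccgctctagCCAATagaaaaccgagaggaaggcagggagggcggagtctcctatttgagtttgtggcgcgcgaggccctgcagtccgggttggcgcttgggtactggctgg
CCNB2: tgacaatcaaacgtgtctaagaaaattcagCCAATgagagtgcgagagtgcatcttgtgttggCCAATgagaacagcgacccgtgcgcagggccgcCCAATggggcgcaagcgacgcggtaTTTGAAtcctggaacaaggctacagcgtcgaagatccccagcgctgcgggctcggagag
The stretches lie at chr15:90994506-90994685 (PRC1, minus strand), chr1:214603045-214603224 (CENPF, plus strand), chr16:81007064-81007243 (CENPN, plus strand), chr2:233854506-233854685 (HJURP, minus strand) and chr15:59104996-59105175 (CCNB2, plus strand), all in GRCh38.p14. In CCNB2 the CCAAT boxes begin 120, 87 and 54 bases before the start, with 33 bases from each to the next, and TTTGAA begins 29 bases before it. In PRC1 a single CCAAT begins 53 bases and TTTGAA 20 bases before the start. CENPF has 4 CCAAT or ATTGG matches in the stretch, and its TTTGAA begins 40 bases past the start, beyond what is printed. CENPN and HJURP hold the same letters and barely changed (log2 fold changes of -0.02 and -0.08), with TTTGAA beginning 3 bases past and 111 bases before the start. Over the genes with a window, the median log2 fold change was -0.64 for 34 with CHR letters and -0.52 for 15 without, and -0.66 for 37 with CCAAT and -0.52 for 12 without. Both kinds of gene thus spanned nearly the same range, from -1.31 to 0.40 with CHR letters and from -1.17 to 0.26 without.

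In what follows, library values are given in the order of replicates 17, 18, 19 and 20 for the undifferentiated and 21, 22, 23 and 24 for the differentiated group. FOXM1, the forkhead transcription factor that switches on many of these genes in G2, was at 74.2, 75.7, 78.5 and 73.3 TPM in undifferentiated and 62.5, 55.4, 62.0 and 63.6 TPM in differentiated libraries. The groups did not overlap, and the log2 fold change of -0.31 ± 0.053 (SE; limma, adjusted p = 0.0014) left it at 80.7% of its level, a smaller fall than the median of the 58 genes.

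Of the 11 mitotic kinases, cyclins and phosphatases 10 fell and 1 was not called, and their median change was -0.62 on the log2 scale. The largest fall was that of CCNB2 (ENSG00000157456, chr15:59105078-59125045, plus strand, GRCh38), a B-type cyclin that activates CDK1: 127, 124, 128 and 121 TPM became 54.5, 55.9, 53.7 and 50.5 TPM. The highest differentiated library, at 55.9 TPM, was far below the lowest undifferentiated one, at 121 TPM, and the log2 fold change was -1.21 ± 0.042 (limma, adjusted p = 1.7e-07). Its sister cyclin CCNB1 fell to 49.8% (adjusted p = 2.97e-07), and CCNB2 made up 37.6% ± 0.562 of the summed level of both before and 34.2% ± 0.846 after treatment (SD, n = 4), with no overlap. CDK1 itself, the kinase these cyclins switch on, had the smallest change among those called, from 271 ± 4.10 to 202 ± 5.04 TPM (-0.42, adjusted p = 1.17e-05). AURKA, which matures centrosomes, fell by 1.03 and PLK1, which acts at centrosomes and kinetochores, fell by 0.89 on the log2 scale. NEK2, which splits the centrosome pair, fell by 0.77. The CDK1-activating phosphatases CDC25B and CDC25C fell by 0.47 and 0.62, CDKN3, a phosphatase that turns CDKs off, fell by 0.46, and the S and G2 cyclin CCNA2 fell by 0.52.

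MELK, a kinase more abundant in dividing than in resting cells, was the one not called. It was at 58.6, 59.0, 57.9 and 58.5 TPM in undifferentiated and 64.6, 63.5, 59.4 and 58.0 TPM in differentiated libraries, and the groups overlapped because replicate 24 lay within the undifferentiated range. Its log2 fold change of 0.07 ± 0.044 was not called (limma, adjusted p = 0.247) and turned to -0.06 and -0.05 under the 2 rescalings.

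**Figure D2:**
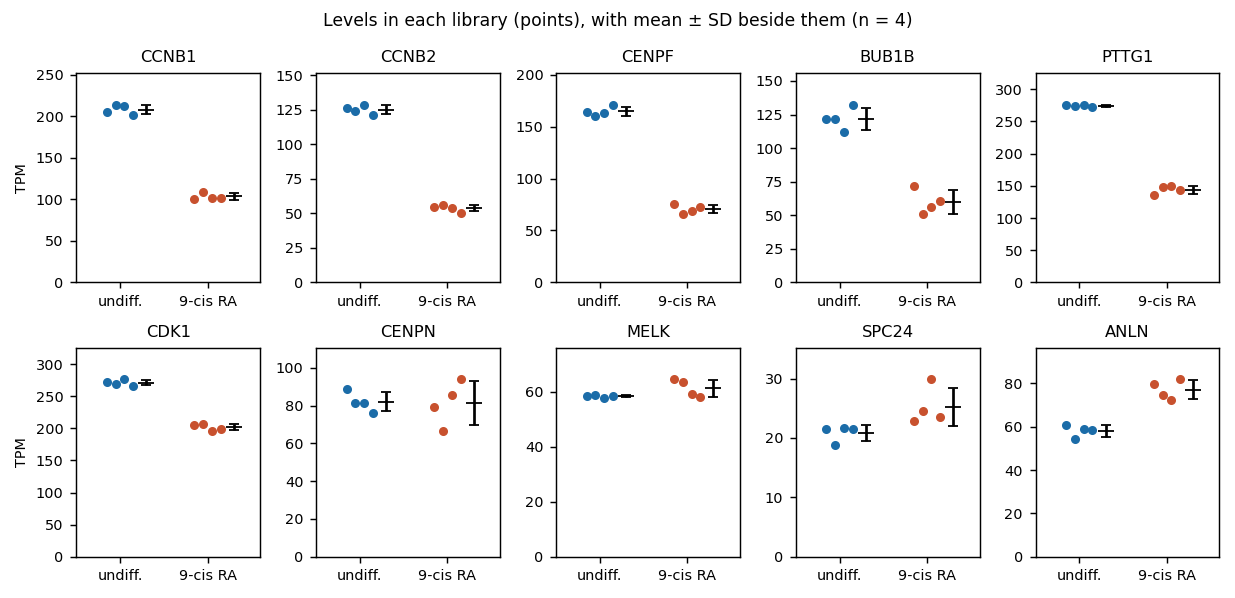
TPM of 10 genes in every library (points; blue undifferentiated, red 9-cis retinoic acid) with the mean and SD of each group beside them (n = 4); each panel has its own y axis, starting at 0. CCNB1, CCNB2, CENPF, BUB1B and PTTG1 drop to near or below 50% of their level, CDK1 drops less, CENPN and MELK overlap, and SPC24 and ANLN lie higher.

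Of the 7 genes of the centromere and inner kinetochore 3 fell, none rose and 4 were not called, with a median of -0.11 (5 fell under either rescaling, with medians of -0.24 and -0.22). CENPA, the histone H3 variant that marks the centromere, was at 39.3, 41.4, 44.2 and 41.2 TPM and then at 23.3, 28.97, 24.1 and 22.6 TPM, all 4 differentiated libraries below the others (-0.73 ± 0.081, limma, adjusted p = 0.000112). HJURP, the chaperone that deposits CENPA, was not called, with 34.6, 33.9, 37.4 and 33.8 TPM in undifferentiated and 34.9, 27.8, 32.5 and 37.3 TPM in differentiated libraries. The HJURP groups overlapped (-0.08 ± 0.088, adjusted p = 0.48), although it was called lower under both rescalings (-0.21 and -0.22). The remaining 5 belong to the constitutive centromere network that links CENPA to the outer kinetochore. CENPI fell to 69.5% of its level (-0.52, adjusted p = 0.0128) and CENPU to 86.2% (-0.21, adjusted p = 0.00162).

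CENPK, which binds CENPI, was at 108, 108, 103 and 103 TPM and then 105, 85.0, 97.6 and 106 TPM. Its lowest value, in replicate 22, stood apart, the other 3 differentiated libraries lay near the undifferentiated ones, and the change of -0.11 ± 0.070 was not called (limma, adjusted p = 0.237; -0.24 and -0.21, both called, under the rescalings). CENPN, which reads the CENPA nucleosome, was at 88.7, 81.5, 81.7 and 76.3 TPM against 79.5, 66.7, 85.6 and 93.9 TPM. The differentiated values spread over a wider range on both sides of the undifferentiated ones (-0.02 ± 0.10, adjusted p = 0.891), and the sign turned to 0.07 without replicate 22. CENPM read 14.8, 13.6, 13.8 and 13.5 TPM and 14.5, 17.4, 15.2 and 16.3 TPM, with an overlap between replicates 17 and 21. Its change of 0.17 ± 0.068 was not called (adjusted p = 0.0663) and was -0.02 after quantile normalization. It was called higher with coding transcripts only (0.22, adjusted p = 0.0173) and without replicate 21 (0.21, adjusted p = 0.0296).

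In the outer kinetochore, which holds the microtubules, 6 of 7 genes fell and 1 rose, with a median of -0.53. CENPF (ENSG00000117724, chr1:214603195-214664588, plus strand, GRCh38), a large coiled-coil protein of the fibrous corona, had the largest fall, with 164, 160.3, 163 and 171 TPM in undifferentiated and 75.0, 66.0, 69.0 and 72.7 TPM in differentiated libraries. The highest differentiated library, at 75.0 TPM, was far below all undifferentiated ones, and the log2 fold change was -1.21 ± 0.048 (limma, adjusted p = 3.16e-07). CENPE, the kinesin that carries chromosomes to the spindle equator, fell almost as far, to 42.5% (-1.17 ± 0.084, adjusted p = 8.55e-06). KNL1, the scaffold on which checkpoint proteins gather, fell by 0.59 on the log2 scale, and by 1.41 over its coding transcripts alone.

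The NDC80 complex is a rod of 4 proteins, NDC80 and NUF2 at the end that grips the microtubule and SPC24 and SPC25 at the end that faces the chromosome, and the genes for its ends are given in turn. NDC80 fell to 72.3% (-0.46 ± 0.051, adjusted p = 0.000111) and NUF2 to 69.1% (-0.53 ± 0.040, adjusted p = 1.12e-05). SPC25 had the smallest fall of the role: 51.0, 54.3, 50.5 and 50.3 TPM became 47.3, 46.6, 46.4 and 48.6 TPM, narrowly separate groups with a log2 fold change of -0.12 ± 0.041 (limma, adjusted p = 0.0333) that was called in 11 of 18 alternative analyses (10 other settings and 8 that leave out a library each). It was lost without replicate 17, 18, 19, 20 or 23, at -0.13, -0.10, -0.13, -0.13 and -0.12. SPC24 was slightly higher after treatment, at 21.6, 18.8, 21.6 and 21.5 TPM and then 22.9, 24.6, 29.9 and 23.5 TPM, with replicate 23 far above the other differentiated libraries and replicate 18 below the other undifferentiated ones. Its log2 fold change of 0.26 ± 0.091 passed narrowly (adjusted p = 0.0446), was called in 6 of 18 alternatives and was lost when any library except replicate 21 was left out, with values of 0.17 (without replicate 23) to 0.29 (without replicate 24). Over the alternatives its adjusted p ran from 0.0154 to 0.521.

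Within the complex, SPC24 was 6.50% ± 0.459 of the summed TPM of the 4 genes in undifferentiated and 10.2% ± 1.38 in differentiated libraries (SD, n = 4), and SPC25 was 16.1% ± 0.522 and 19.2% ± 0.521. NUF2 went from 55.1% ± 0.936 to 49.6% ± 1.57 and NDC80 from 22.3% ± 0.961 to 21.0% ± 0.930. Groups of shares did not overlap for SPC24, SPC25 and NUF2 and overlapped for NDC80. Shares of 1 sum move against each other by construction, so they were not tested. The sum counts all transcripts of each gene, so the shares do not give the make-up of coding messages. In the undifferentiated group coding transcripts held 58.2% of NUF2, 84.1% of NDC80, 97.0% of SPC24 and 94.3% of SPC25.

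**Figure D3:**
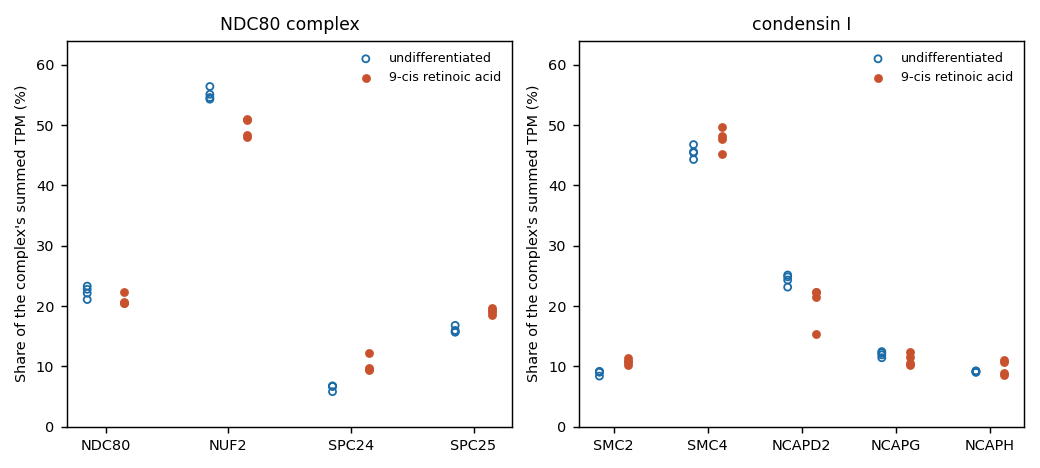
Share of each gene in the summed TPM of its complex (y axis, percent), one point per library. TPM are over all transcripts of each gene, for the NDC80 complex (left) and condensin I (right). Open blue circles are undifferentiated and filled red circles 9-cis retinoic acid libraries. SPC24 and SPC25 take larger shares and NUF2 a smaller one after treatment, and SMC2 rises above its undifferentiated range while NCAPD2 falls below it, furthest in replicate 22.

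All 5 spindle checkpoint genes fell, with a median of -0.75. BUB1B, which as BUBR1 is part of the complex that blocks the APC/C, fell most: 122, 122, 112 and 132 TPM became 71.5, 50.8, 56.5 and 61.0 TPM. Both groups varied more than for most genes but stayed far apart (-1.02 ± 0.10, limma, adjusted p = 5.92e-05). BUB3, which brings BUB1 and BUB1B to the kinetochore and is also present outside mitosis, fell least, from 183, 181, 188 and 180.4 TPM to 132, 133, 125 and 126 TPM. Even so the highest differentiated library was far below the lowest undifferentiated one (-0.50 ± 0.035, adjusted p = 8.13e-06). TTK, the kinase that starts the checkpoint, fell to 54.0%, the kinase BUB1 to 58.9% and MAD2L1, the inhibitor of CDC20, to 65.1%. Coding transcripts held only 15.55% of MAD2L1 in undifferentiated and 14.87% in differentiated libraries. Most of its TPM was MAD2L1-202, annotated as a nonsense-mediated decay transcript, which went from 174 ± 5.75 to 112 ± 4.26 TPM. The log2 fold change of MAD2L1 was -0.62 over all transcripts and -0.66 over coding ones.

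All 4 genes of the chromosomal passenger complex fell, with a median of -0.60. CDCA8, the subunit borealin, fell most and with very little spread, from 40.8, 41.5, 40.9 and 40.6 TPM to 22.8, 22.3, 23.1 and 22.1 TPM (-0.83 ± 0.037, limma, adjusted p = 6.11e-07). AURKB, the kinase of the complex, fell least, from 105, 96.0, 97.8 and 92.8 TPM to 70.0, 64.4, 72.8 and 68.3 TPM, again without overlap (-0.50 ± 0.054, adjusted p = 9.13e-05). The scaffold INCENP stood at 67.2% and BIRC5 (survivin) at 64.1% of the undifferentiated level. CDCA8 was accordingly a smaller part of the complex's summed TPM, 11.6% ± 0.364 before and 9.75% ± 0.414 after. That sum counts all transcripts. In the undifferentiated group coding ones held 30.2% of INCENP, 60.4% of AURKB, 73.3% of BIRC5 and 100% of CDCA8.

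All 6 genes of anaphase and sister chromatid cohesion fell, with the lowest median among roles of several genes, -0.78. PTTG1, the securin that holds separase in check, was nearly constant in the undifferentiated libraries at 275, 273, 275 and 273 TPM and fell to 136, 148, 149 and 144 TPM (-0.92 ± 0.038, limma, adjusted p = 4.04e-07). CDC20, the APC/C activator that the checkpoint restrains, fell least, from 68.8, 68.6, 72.9 and 67.4 TPM to 41.7, 48.3, 47.4 and 46.0 TPM (-0.59 ± 0.055, adjusted p = 3.89e-05). UBE2C, the enzyme that passes ubiquitin to APC/C substrates, fell from 235 ± 13.5 to 135 ± 6.18 TPM. The protectors of centromeric cohesin, SGO1 and SGO2, fell by 0.70 and 0.84 on the log2 scale. ESPL1, the separase that cuts cohesin, fell to 59.6% with a wide spread, replicate 22 being at 16.6 TPM and the other 3 differentiated libraries at 25.4 to 31.8 TPM.

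All 8 spindle and microtubule genes fell, with a median of -0.76. PRC1 (ENSG00000198901, chr15:90966038-90995629, minus strand, GRCh38), which bundles the antiparallel microtubules of the spindle midzone, had the largest fall of the 58 genes over all transcripts (over coding transcripts alone CENPF at -1.49 and KNL1 at -1.41 were lower than PRC1 at -1.29), with 146, 132, 123 and 143 TPM in undifferentiated and 67.0, 48.1, 52.0 and 51.5 TPM in differentiated libraries. Replicate 21 was the highest of the differentiated libraries and still well under the lowest undifferentiated one (-1.31 ± 0.11, limma, adjusted p = 1.7e-05, at 40.2% of the level). ASPM, which focuses spindle poles, fell by 1.11, and the spindle proteins NUSAP1, DLGAP5, TPX2 and CKAP2 fell by 0.86, 0.83, 0.69 and 0.68 on the log2 scale. Coding transcripts held only 40.4% of NUSAP1 in the undifferentiated group, and over coding transcripts alone NUSAP1 fell by 0.64. TACC3, which joins CKAP5 on spindle microtubules, fell by 0.44. CKAP5, a microtubule polymerase also used outside mitosis, fell least, from 86.2, 103, 93.7 and 103 TPM to 85.6, 65.0, 69.8 and 88.6 TPM. Its groups overlapped, since replicate 24 lay above replicate 17, and its call (-0.33 ± 0.11, adjusted p = 0.0384) held in 10 of 18 alternatives, with an adjusted p of 0.00144 to 0.109 over them; it was lost without replicate 18, 19, 20, 22 or 23 (-0.29, -0.34, -0.29, -0.25 and -0.28).

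The pair of cytokinesis genes split. ECT2, which switches on RhoA to place the cleavage furrow, fell a little, from 87.0, 91.6, 87.5 and 86.7 TPM to 79.5, 70.0, 78.2 and 80.0 TPM (-0.20 ± 0.051, limma, adjusted p = 0.0121), with the groups separate. ANLN (anillin; ENSG00000011426, chr7:36389806-36453791, plus strand, GRCh38), the scaffold that ties actin, myosin and septins together in the contractile ring, rose from 60.7, 54.4, 59.0 and 58.5 TPM to 79.6, 74.6, 72.5 and 81.8 TPM. The lowest differentiated library, at 72.5 TPM, was well above the highest undifferentiated one, at 60.7 TPM, the mean was 133% of the undifferentiated level, and the log2 fold change was 0.40 ± 0.054 (adjusted p = 0.000357). ANLN was called higher in all 18 alternatives, at 0.27 to 0.43, and is the only gene of the 58 of which that holds. Its window was among those with CHR letters but without CCAAT.

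All 7 genes of condensin I and the mitotic chromosome fell, with a median of -0.66. TOP2A, the enzyme that untangles sister DNA, fell most, from 271, 277, 268 and 274 TPM to 159.5, 119, 139.7 and 152 TPM, without overlap (-0.94 ± 0.085, limma, adjusted p = 3.36e-05). SMC2, a core subunit of condensin that condensin II shares, fell least, from 47.0, 50.1, 43.9 and 48.0 TPM to 43.1, 31.6, 35.6 and 38.4 TPM, where replicates 21 and 19 came within 1 TPM of each other (-0.35 ± 0.092, adjusted p = 0.0134). MKI67, the coat protein of mitotic chromosomes known as Ki-67, was at 57.0 to 59.96 TPM in undifferentiated and 27.5 to 46.2 TPM in differentiated libraries. NCAPD2, a regulatory subunit of condensin I, spread widely after treatment. It was at 42.8 TPM in replicate 22 and at 69.8 to 89.3 TPM in the other 3 differentiated libraries, and it took 15.5% of the summed TPM of condensin I there against 21.5% to 22.4% in the others and 24.4% ± 0.888 in the undifferentiated group. SMC2 went from 8.94% ± 0.360 to 10.9% ± 0.459 of that sum, with no overlap, and SMC4, the other core subunit, from 45.5% ± 1.01 to 47.7% ± 1.85. The sum counts all transcripts, and in the undifferentiated group coding ones held 43.1% of SMC4 and 98.3% of NCAPH. For NCAPD2, the 533-base transcript NCAPD2-208 went from 49.2 ± 4.67 to 15.9 ± 12.0 TPM and was at 0 TPM in replicate 22. NCAPD2-201, of 5548 bases, went from 40.7 ± 1.49 to 32.6 ± 1.32 TPM and was at 31.0 TPM in replicate 22. Neither was called in share.

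The table lists transcripts, so it could be asked whether these genes changed the form they were made in. The part of a gene's TPM that each transcript holds was compared with limma on the arcsine square root scale, for genes at 5 TPM or more in both groups and transcripts holding 10% to 90%. Calls required a shift of at least 10 percentage points besides the adjusted p. Of 136 transcripts of 53 of the 58 genes 3 were called, a share close to the 2.4% called among all 22951 transcripts tested. The 3 were FOXM1-203, CENPE-201 and CENPE-202, in GENCODE 29 names, all coding.

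FOXM1-203 held 29.8%, 27.3%, 30.8% and 28.1% of FOXM1 in undifferentiated and 18.1%, 11.6%, 18.0% and 14.4% in differentiated libraries, a fall from 28.96% ± 1.58 to 15.5% ± 3.12 (SD, n = 4; limma, adjusted p = 0.0175). FOXM1-202 was at 30.3%, 37.1%, 33.4% and 32.4% and then 47.2%, 47.8%, 39.9% and 42.1%, and the difference of 10.9 percentage points was not called (adjusted p = 0.0582). FOXM1-201 held 13.2% and 12.8%. In TPM, FOXM1-203 went from 21.9 ± 1.67 to 9.52 ± 2.28 and FOXM1-202 from 25.1 ± 2.50 to 26.9 ± 1.97. In their coding sequence, FOXM1-202 has a 45-base exon, the sixth, which FOXM1-203 lacks. It is printed because its absence sets apart FOXM1-203, the form that became scarcer, and lies at chr12:2865355-2865399 on the minus strand of GRCh38.
FOXM1 exon 6: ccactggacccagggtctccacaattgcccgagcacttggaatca

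CENPE-201 held 24.3%, 23.2%, 23.7% and 20.1% in undifferentiated and 15.8%, 7.34%, 11.8% and 10.5% in differentiated libraries (22.8% ± 1.87 to 11.4% ± 3.51, adjusted p = 0.0318), and CENPE-202 held 71.0%, 76.1%, 76.3% and 73.3% and 82.0%, 90.7%, 86.2% and 88.7% (74.2% ± 2.53 to 86.9% ± 3.76, adjusted p = 0.0287). All 4 differentiated libraries lay outside the undifferentiated range for both. In TPM both forms fell, CENPE-201 from 6.18 ± 0.386 to 1.34 ± 0.553 and CENPE-202 from 20.1 ± 0.85 to 9.96 ± 0.942. CENPE-201 was at only 0.714 TPM in replicate 22. The 2 forms hold nearly all of the gene, so their shares mirror each other and the 2 calls are not separate results. CENPE-201 has 2 whole coding exons that CENPE-202 lacks, exon 17 of 75 bases and exon 38 of 291 bases. The shorter is printed to show what the scarcer form carries, from chr4:103163479-103163553 on the minus strand of GRCh38.
CENPE exon 17: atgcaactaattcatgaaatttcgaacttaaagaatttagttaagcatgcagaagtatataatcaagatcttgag
These calls rest on all 4 undifferentiated libraries: leaving out any 1 of them, or keeping lane 8 only, left no call, and leaving out replicate 23 or 24 left 1, although the differences stayed at -14.3 to -12.1 percentage points for FOXM1-203, -13.0 to -10.1 for CENPE-201 and 11.5 to 14.4 for CENPE-202 over the 10 alternatives. The highest adjusted p over those alternatives was 0.235, 0.321 and 0.288.

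**Figure D4:**
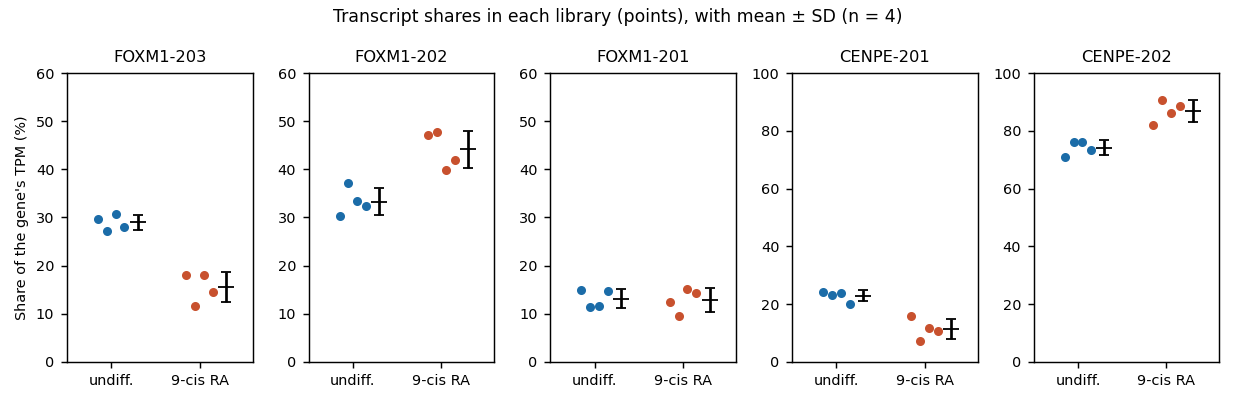
Share of the gene's TPM held by each of 5 transcripts (y axis, percent) in every library (points; blue undifferentiated, red 9-cis retinoic acid), with mean and SD beside them (n = 4); the FOXM1 panels end at 60% and the CENPE panels at 100%. FOXM1-203 and CENPE-201 drop to shares below their undifferentiated range, FOXM1-202 and CENPE-202 lie above theirs, and FOXM1-201 overlaps.

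Transcripts annotated as coding held a share of each gene that was called different in 0 of the 58 genes (limma; 9 at an unadjusted p under 0.05), against 1.66% of 9816 genes. CENPU alone had an adjusted p under 0.05 (0.0113), with 72.8% before and 63.5% after, a difference under the 10 points a call needed. KNL1 was picked after its values were seen: its coding share went from 35.2%, 41.4%, 32.7% and 41.8% to 31.3%, 11.7%, 16.1% and 24.2%, separate groups with wide spread (adjusted p = 0.135), so that its log2 fold change was -0.59 over all transcripts and -1.41 over coding ones. For CENPU the same values were -0.21 and -0.41. Retained-intron transcripts held 11.24% to 12.05% of the TPM of the 58 genes in undifferentiated and 12.03% to 13.14% in differentiated libraries, ranges that barely overlap. Over all protein-coding genes they held 7.879% to 8.381% and 6.786% to 9.135% in the same order. The difference was not tested.

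Some levels could include reads of a neighbour, since whether the counting used strand is not given. In 11 of the 58 genes an exon overlaps one of a protein-coding gene on the opposite strand. For ANLN the partner is MATCAP2 (78 shared bases), which was not called (log2 fold change 0.04; limma, adjusted p = 0.642). CENPN shares 457 bases with CMC2, which rose by 0.20, CENPU 346 bases with PRIMPOL, which rose by 0.39, and SMC4 607 bases with IFT80, which rose by 0.58. The longest overlaps were NCAPG with LCORL (1631 bases, not called) and SMC4 with TRIM59 (1561 bases), which rose by 0.48. NCAPD2 shares 486 bases with MRPL51, which was at 252 TPM in the undifferentiated group and fell by 0.16. On the same strand, CENPA shares 138 bases with SLC35F6, which rose by 0.58. Named pseudogenes, known for 16 of the 58, summed to at most 1.44 TPM for any gene (UBE2C).

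Around these 58 genes, 130 further genes, most of them of the same machinery, were listed and 129 were found and tested. Of these 69 fell, 10 rose and 50 were not called, and the median change was -0.26 on the log2 scale (90 and 93 fell and 5 rose under the 2 rescalings, with a median of -0.39 in both, and 70 fell and 17 rose without replicate 22). Of 12 mitotic kinesins, the motors of the spindle and the cell's midbody, 10 fell and none rose (median -0.41), with KIF20A at -0.78, KIF14 at -0.75, KIF2C at -0.69 and KIF18B at -0.63. Of 13 genes of mitotic entry and exit 10 fell (median -0.30), led by CDC25A, a phosphatase that activates CDKs (-0.88), CKS2, a CDK subunit (-0.81), DEPDC1B (-0.80) and DEPDC1 (-0.68).

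Of 24 genes of the centrosome and spindle 15 fell and 1 rose (median -0.42). The list also held PIF1, a DNA helicase and not a centrosome or spindle protein. PIF1 fell from 62.0 ± 4.04 to 20.3 ± 1.79 TPM (-1.56 ± 0.074, limma, adjusted p = 8.4e-07), further than any of the 58. HMMR and KNSTRN, both spindle proteins, fell by 0.90 each and CKAP2L by 0.85. HAUS4, part of the augmin complex that branches microtubules, rose by 0.53. Of 7 genes of condensin II and the chromosome 5 fell (median -0.41), among them the importin KPNA2 (-0.72), the lamin LMNB1 (-0.50), the midzone protein RACGAP1 (-0.44) and NCAPD3 of condensin II (-0.41).

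Of 26 other kinetochore genes 13 fell and 3 rose (median -0.22). SKA2, part of the complex that keeps kinetochores on shrinking microtubules, fell most (-0.74), with CENPO at -0.57 and OIP5, which helps load CENPA, at -0.49. MAD2L2, a relative of MAD2L1 that works in DNA repair as well, rose from 32.5 ± 0.834 to 53.9 ± 8.58 TPM (0.70 ± 0.10, adjusted p = 0.000532), and DSN1 and CENPT rose by 0.22 and 0.20. Under the rescalings 19 and 20 genes of this list were called lower, with medians of -0.35 and -0.37, and 1 higher under either. Of 11 genes of cohesin, the ring that holds sister chromatids together, 5 fell and none rose (median -0.07), with SMC1A at -0.45, STAG2 at -0.43, SMC3 at -0.41 and PDS5A at -0.28. Under either rescaling 7 of them fell and none rose, with medians of -0.20 and -0.19.

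The genes of the APC/C, the ubiquitin ligase that CDC20 and UBE2C serve, had no common direction. Of 17 genes 4 fell and 4 rose, and the median was 0.04 (-0.09 and -0.10 under the 2 rescalings). UBE2S, which extends ubiquitin chains on its substrates, fell by 0.58 and FZR1, its activator after mitosis, fell by 0.45. Subunits went both ways. ANAPC7 and ANAPC15 fell by 0.22 and 0.21, while ANAPC16, ANAPC13, CDC26 and ANAPC10 rose by 0.55, 0.35, 0.26 and 0.23. The remaining 9 genes were not called. With the rescalings 8 and 7 fell and 1 and 2 rose.

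Among 19 genes of MuvB, the E2F factors and the pocket proteins, which control transcription of these genes, 7 fell and 2 rose (median -0.12). E2F5, E2F2 and E2F3 fell by 0.86, 0.69 and 0.55. RBBP4, LIN9, E2F1 and E2F4 fell as well (-0.41, -0.22, -0.22 and -0.21, limma, adjusted p = 0.000426, 0.00768, 0.0151 and 0.026). The 10 not called were LIN52, LIN54, MYBL1, MYBL2, E2F7, E2F8, TFDP1, TFDP2, RB1 and RBL1. The MuvB subunit LIN37 rose from 10.1 ± 0.962 to 15.3 ± 1.73 TPM (0.55 ± 0.099, limma, adjusted p = 0.0018) and the pocket protein RBL2 (p130) from 39.5 ± 1.07 to 50.5 ± 6.24 TPM (0.34 ± 0.086, adjusted p = 0.0106). Under the rescalings LIN37 was at 0.43 and 0.35 and RBL2 at 0.21 and 0.22. The list then had 11 and 13 genes called lower, with medians of -0.25 and -0.26, and 2 called higher after median-of-ratios scaling but 1 after quantile normalization.

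DNA replication genes, which act in S phase, gave a comparison within the cycle. Of 41 listed 40 were found and tested, 20 fell and 2 rose, and the median was -0.20, against -0.62 for the 58 mitotic genes. After median-of-ratios scaling 29 fell and 1 rose and the medians were -0.33 and -0.75, and after quantile normalization 30 fell and 1 rose and the medians were -0.34 and -0.73. The largest changes were those of DBF4 (-0.64), which activates the kinase CDC7, the primase PRIM1 (-0.60), the helicase subunit MCM7 (-0.53) and ORC1 (-0.52), while CDC7 itself rose by 0.52 and POLD3 by 0.24. Their summed level was 2950.0 to 2985 TPM in undifferentiated and 2457 to 2634 TPM in differentiated libraries. The difference between the 2 lists was not tested.

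**Figure D5:**
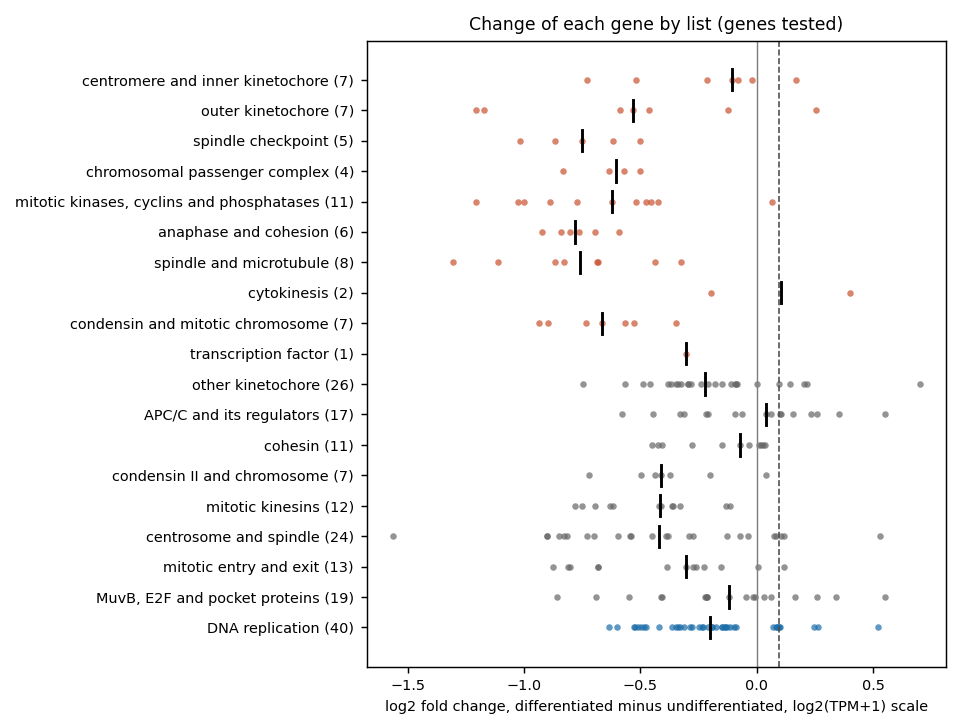
Log2 fold change of every tested gene (points, x axis, log2(TPM+1) scale) by list, with the number of genes in brackets and the median of each list as a black bar; red lists hold the 58 genes, grey lists the wider machinery and blue the DNA replication genes. The grey line marks 0 and the dashed line the median of all tested genes, 0.10. Most red medians lie between -0.53 and -0.78, with FOXM1 at -0.31 and the cytokinesis pair at 0.10. The inner kinetochore, APC/C, cohesin and MuvB lists sit near 0 on this scale (at -0.24, -0.09, -0.20 and -0.25 after median-of-ratios scaling).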

How the data were processed

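The authors deposited a table of TPM per Ensembl transcript for 8 libraries, which were put into 2 groups of 4 by the cell type label. Per the labels' protocols, RNeasy columns and a stranded mRNA kit from Illumina were used, and per the submitters' processing notes FastQC 0.11.2, Salmon and genome build GRCh37 were used. The sources used here give no version or settings of Salmon, no annotation and no use of strand. Salmon divides reads among similar transcripts, so shares between transcripts of a gene are estimates.

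Of 194993 transcripts 180930 (92.8%) matched GENCODE 29 (GRCh38) by identifier without version and made up 93.2% to 95.0% of each library's TPM. Positions and transcript forms are those of this reference and not of the authors' build. TPM were summed per gene. The main test was limma 3.58.1 (R 4.3.3; lmFit, eBayes with trend) for genes averaging at least 1 TPM, on log2(TPM+1), a scale that understates the change of low genes, and no term besides group. Fits ran over all genes or transcripts, with two-sided p-values adjusted by Benjamini-Hochberg over all of them. Tables were made in Python 3.11.15 with pandas 2.3.3. The steps were tested on simulated data.

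Alternatives were pseudocounts of 0.1 and 0.5, a minimum of 5 TPM and none, median-of-ratios, quantile and protein-coding scaling, limma without trend, lane 8 only, coding transcripts only, and each library left out in turn.

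The members and lists were chosen with earlier results of these data known. Library values are given for the largest and smallest change of each role and for genes not called or moving against their role. Of each wider list up to 4 called genes with the largest change are named, and called genes moving against it. Further genes of the MuvB and APC/C lists and the transcripts of NCAPD2 and MAD2L1 were added after their values were seen.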

Additional observations from a re-analysis of the deposited data

Results flagged for a closer look

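Within the 116 groups of 4 libraries (58 genes, each in both groups) 4 had a library set far apart from the rest, where chance alone gives about 1 in 20. SPC24 was at 18.8 TPM in undifferentiated replicate 18 and at 21.5 to 21.6 TPM in the other 3. ECT2 was at 91.6 TPM in the same library, against 86.7 to 87.5 TPM. CCNA2 was at 55.4 TPM in differentiated replicate 22, against 57.6 to 57.9 TPM, and PLK1 was at 35.5 TPM in that library, against 33.4 to 33.75 TPM. For CCNA2 and PLK1 the gap is small beside the difference between the groups.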

How the results depend on the processing

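The direction and call of 45 of the 58 mitotic genes were the same in all 18 alternatives, and 44 of the 51 genes called lower were so in every one. The count of these genes called higher was 1 in place of 2 with no filter on low values, median-of-ratios scaling, quantile normalization, limma without trend and lane 8 only, and 1 to 3 with a library left out. Genes of the wider machinery called higher were 5 after median-of-ratios scaling and 5 after quantile normalization in place of 10, and 10 to 17 with a library left out. All genes called lower were 4461 after median-of-ratios scaling, 5098 after quantile normalization and 1886 in lane 8 only, in place of 2970. The median log2 fold change of the 58 genes was -0.75 after median-of-ratios scaling and -0.73 after quantile normalization, and -0.64 to -0.59 with a library left out. Transcripts called in share were 0 in lane 8 only, 5 on the adjusted p alone and 0 to 3 with a library left out, in place of 3. Genes called in coding share were 1 on the adjusted p alone and 0 to 1 with a library left out, in place of 0. The direction reversed for CENPM after quantile normalization (-0.022), for MELK after median-of-ratios scaling (-0.064) and quantile normalization (-0.052), and for CENPN in lane 8 only (0.033), with coding transcripts only (0.083) and with a library left out (-0.091 to 0.071, above 0 without replicate 17 or 22), none of these past the threshold. Median-of-ratios scaling multiplies every gene of a library by 1 factor and lane 8 only has fewer samples, by construction; for the other changes, those after quantile normalization included, the cause was not tested. No paired analysis was possible because the groups share no replicate numbers. Depth is unknown, so its part in the error of low transcripts cannot be stated.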
